A study of Capra hircus with 10 samples.

Results

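Complement genes were followed in whole goat ovaries of the luteal and the follicular phase. The 9 genes described are C1QA, C1QB, C1QC, C1R, C1S, C2, C3, C7 and CFD. They were found by symbol among the protein-coding rows of the transcript table, which hold 20587 gene symbols, and all 9 were present, with 14 of the 43766 protein-coding transcripts. The FPKM of a gene's transcripts (fragments on a transcript relative to its length and to the fragments mapped in that library) were added up to give a level per gene. The study sequenced ribosomal RNA-depleted total RNA from 5 luteal phase and 5 follicular phase ovaries of Anhui white goats, 1 library per ovary. The ovaries came from a slaughterhouse. The labels give no treatment, no age, no day of the cycle and no statement that each ovary came from a separate animal, so the p-values measure the spread between these ovaries only.

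Complement is a set of plasma and cell surface proteins that marks particles and cells for removal and can open pores in membranes. In the classical pathway C1q binds antibody or a surface, and its partner proteases C1r and C1s become active. C1s then cleaves C4 and C2, and the resulting enzyme cleaves C3. The alternative pathway amplifies C3 cleavage with factor B and factor D, and C5 to C9 build the pore. Complement proteins of plasma come largely from the liver, but macrophages, fibroblasts and other tissue cells also make some of them, with C1q known as a product of macrophages and adipsin (factor D) as a product of fat cells. The corpus luteum, the progesterone-secreting gland that forms from the ovulated follicle, holds many blood vessels and is known to contain macrophages.

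The phase labels were checked against marker genes. All 4 luteal cell markers found were higher in the luteal phase, and their summed FPKM ran from 4747 to 6538 in luteal phase ovaries and from 122 to 170 in follicular phase ovaries. Of 6 granulosa cell markers, 3 were lower in the luteal phase and 3 did not pass the test, and none was higher. Among all genes tested, 15.9% were higher and 27.8% lower in the luteal phase. The summed FPKM of the granulosa cell markers overlapped widely, from 92.0 to 639 in luteal ovaries and from 203 to 1054 in follicular ovaries. No read counts were analysed here. The study gives its clean reads as a total over all libraries, and the depth of each ovary is unknown.

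Of the 9 genes, 7 had a higher level in the luteal phase and none a lower one. These were the 3 genes of C1q, the C1 proteases C1R and C1S, C2, and C3, with luteal phase means between 1.68 and 4.02 times the follicular phase means. In these 7, every luteal phase ovary lay above every follicular phase ovary. C7, a component of the membrane pore, and CFD, the protease factor D, did not pass the test. The test was limma on log2(FPKM + 0.1), luteal minus follicular, two-sided, with Benjamini-Hochberg adjustment over the 15359 genes that reached an FPKM of 0.1 in 5 or more ovaries, and an adjusted p under 0.05 counted as a pass. All 9 genes met this filter. Among all genes tested, 15.9% passed as higher in the luteal phase and 27.8% as lower, and in 11.2% every luteal phase ovary lay above every follicular phase ovary. The median log2 fold change of the 9 genes was 1.27, and that of all genes tested was -0.14. The 9 genes were chosen with earlier results of these data known, so these shares and medians are a description. Higher genes made up 36.3% of all calls on the deposited scale, 48.8% after a shift to a common median and 52.1% on the TPM scale, and the 7 calls stood on each of these scales. Whole ovaries were measured, so more cells of a type and more RNA per cell cannot be told apart.

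**Figure D1:**
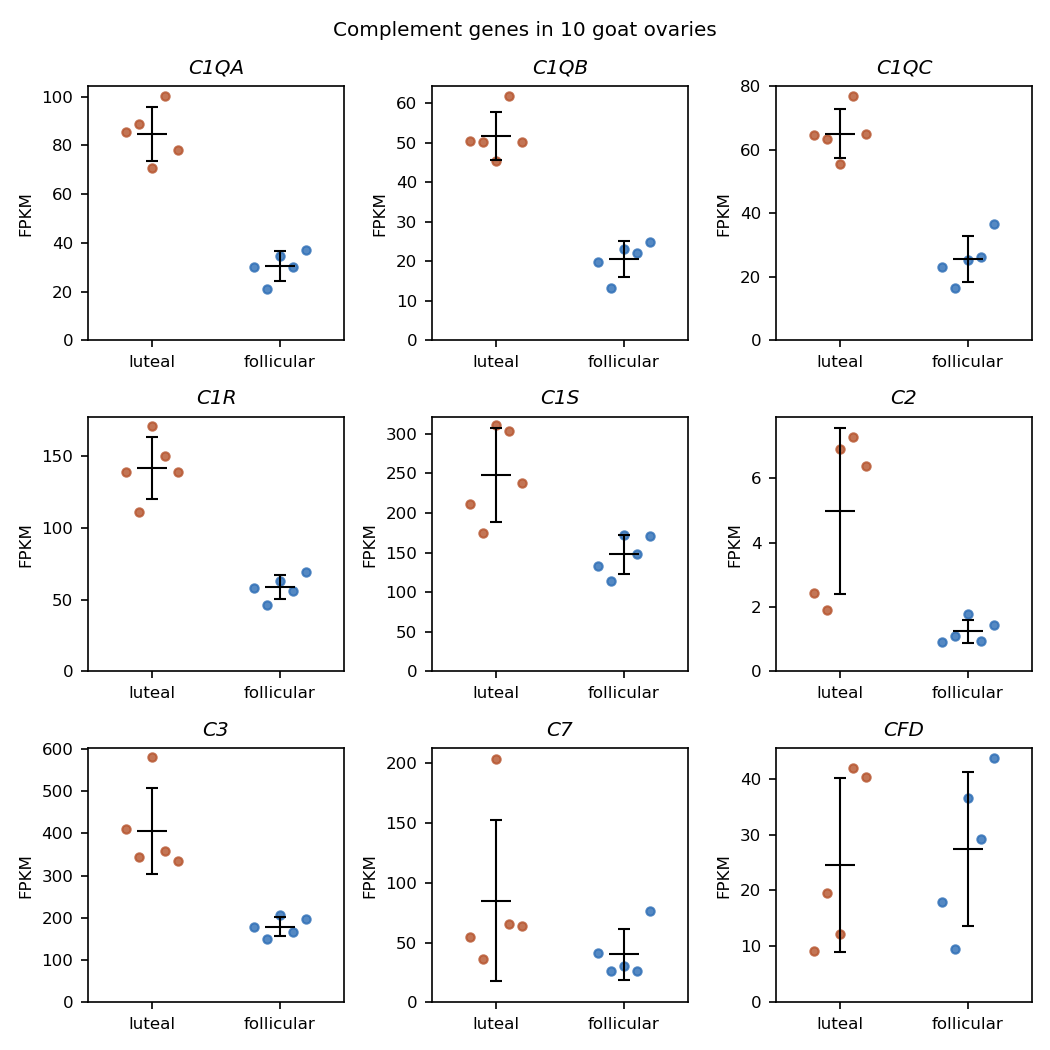
FPKM (vertical axes, from 0) of 9 complement genes in 5 luteal phase and 5 follicular phase ovaries. Each point is 1 ovary, ordered by replicate number from left to right within a phase, and the bars show the mean and the SD of the 5 ovaries. The phases stand apart for 7 genes and overlap for C7, where 1 luteal phase ovary is at 203, and for CFD.

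C1q is built from equal numbers of A, B and C chains, encoded by C1QA, C1QB and C1QC. C1QA had an FPKM of 85.4, 88.8, 70.6, 100.35 and 78.1 in luteal phase replicates 1 to 5 and of 30.0, 21.0, 34.7, 30.3 and 37.3 in follicular phase replicates 1 to 5. Its lowest luteal phase ovary, replicate 3, was well above its highest follicular phase ovary, replicate 5. C1QA thus changed by 1.48 on the log2 scale (standard error 0.15, limma adjusted p = 2.54e-05), or 2.79-fold with a 95% interval from 2.23 to 3.48.

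C1QB was at 50.4, 50.3, 45.4, 62.0 and 50.3 in the luteal phase ovaries and at 19.9, 13.3, 23.1, 22.0 and 25.0 in the follicular phase ovaries. C1QC was at 64.6, 63.3, 55.5, 77.0 and 64.9 in luteal ovaries and at 23.1, 16.5, 25.2, 26.3 and 36.6 in follicular ovaries. For both chains luteal phase replicate 4 was the highest ovary, as for C1QA, and follicular phase replicate 2 the lowest. The log2 fold change was 1.34 for C1QB (standard error 0.15, limma adjusted p = 7.45e-05) and 1.38 for C1QC (standard error 0.17, adjusted p = 0.000125).

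FPKM of C1QA was 1.55 to 1.76 times that of C1QB in luteal ovaries and 1.37 to 1.58 times in follicular ovaries. The log2 ratio differed by 0.13 between the phases (two-sided exact permutation p = 0.0238, adjusted p = 0.0595 over the 5 ratios tested), which did not pass. FPKM of C1QA was 1.20 to 1.40 times that of C1QC in luteal ovaries and 1.02 to 1.38 times in follicular ovaries, and C1QB was 0.775 to 0.818 and 0.682 to 0.916 times C1QC. For C1QA to C1QC the difference in log2 ratio was 0.09 (exact permutation, adjusted p = 0.503), with values from 0.031 to 0.14 when 1 ovary was left out, and for C1QB to C1QC -0.04 (exact permutation, adjusted p = 0.643). In the RefSeq gene order of the goat assembly ARS1.2 these genes are direct neighbours, in the order C1QA, C1QC, C1QB. With phase means taken out, Pearson's r between the chains over the 10 ovaries ran from 0.906 to 0.961, which is given as a description of values that share their libraries.

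C1R and C1S encode the serine proteases that bind C1q and start the classical cascade, and the genes lie next to each other. C1R had an FPKM of 139, 111, 171, 150 and 139 in luteal phase replicates 1 to 5 and of 58.3, 46.6, 63.3, 55.8 and 69.1 in the follicular phase. The lowest luteal ovary, replicate 2, was well above the highest follicular ovary, replicate 5. C1R changed by 1.27 on the log2 scale (standard error 0.13, limma adjusted p = 2.36e-05).

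C1S was the more abundant of the pair, at 211, 175, 311, 304 and 238 in luteal ovaries and at 133, 114, 172, 149 and 171 in follicular ovaries. The phases were barely apart, since luteal phase replicate 2 was at 175 and follicular phase replicate 3 at 172. On the log2 scale it changed by 0.73 (standard error 0.17, limma adjusted p = 0.00554), the smallest change among the 7 genes that passed.

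The proteases therefore changed unequally. The ratio of C1R to C1S ran from 0.493 to 0.660 in luteal phase ovaries and from 0.368 to 0.437 in follicular phase ovaries, with no overlap. The log2 ratio averaged -0.78 ± 0.17 in luteal and -1.33 ± 0.10 in follicular ovaries (SD over 5 ovaries), a difference of 0.55 (two-sided exact permutation p = 0.00794, the lowest value this design can reach, and adjusted p = 0.0397 over the 5 ratios). Without follicular phase replicate 3 or 4 the adjusted p was 0.0794, at a difference of 0.52 in each case. SERPING1, the inhibitor of C1r and C1s, had an FPKM from 23.7 to 65.8 in luteal ovaries and from 19.2 to 47.0 in follicular ovaries, a log2 fold change of 0.62 (limma adjusted p = 0.0911) that did not pass. The ratio of C1S to SERPING1 ran from 4.73 to 7.40 in luteal ovaries and from 3.64 to 7.73 in follicular ovaries, and its log2 value differed by 0.11 (exact permutation, adjusted p = 0.643).

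**Figure D2:**
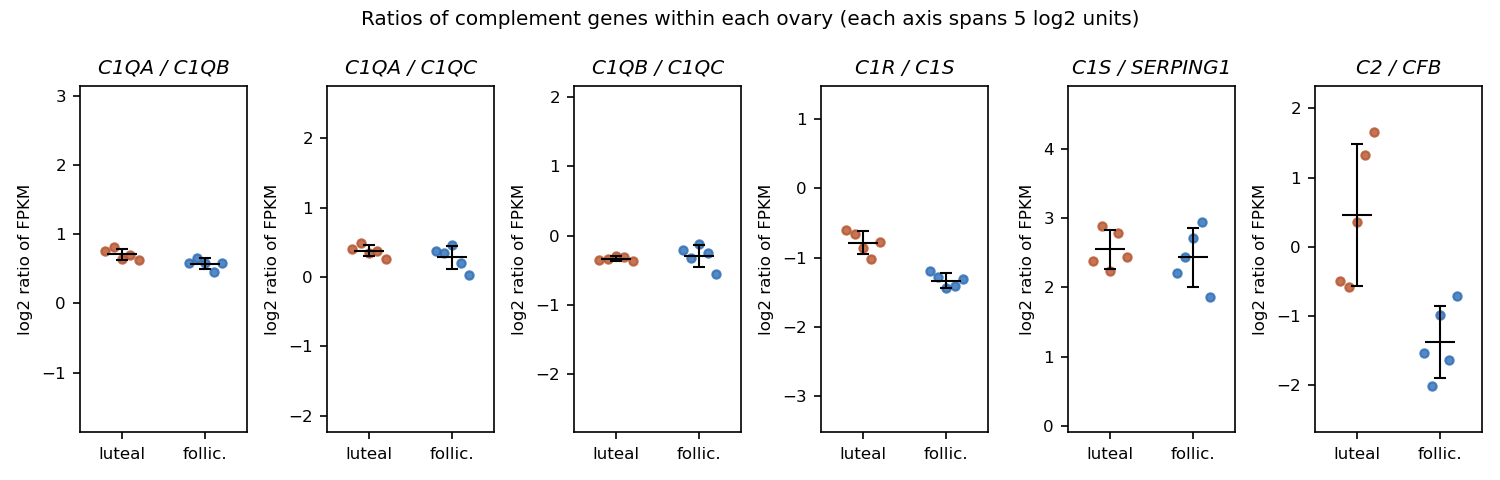
Log2 ratio of the FPKM of 2 genes within each ovary (vertical axes, all of the same span) for 6 pairs, with 5 luteal phase and 5 follicular phase ovaries as points and their mean and SD as bars. The phases overlap for the C1q chains and for C1S / SERPING1 and stand apart for C1R / C1S, while for C2 / CFB every luteal phase ovary is above every follicular phase ovary.

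C2, which C1s cleaves to give the catalytic part of the classical C3 convertase, had the lowest levels of the 9 genes. Its log2 fold change was the largest of them at a pseudocount of 0.1, but with a pseudocount of 1 it was below those of the 3 C1q chains, which were then at 1.31 to 1.45. It was at 2.44, 1.91, 6.91, 7.26 and 6.37 in luteal phase replicates 1 to 5 and at 0.915, 1.09, 1.79, 0.959 and 1.45 in follicular phase replicates 1 to 5. The luteal phase ovaries lay in 2 groups, with replicates 1 and 2 close to the follicular phase ovaries. C2 changed by 1.77 on the log2 scale (standard error 0.38, limma adjusted p = 0.00328).

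CFB, the alternative pathway counterpart of C2 and its direct neighbour in the gene order, is not among the 9 genes. Its FPKM ran from 2.02 to 5.37 in luteal ovaries and from 2.37 to 4.39 in follicular ovaries, with a log2 fold change of 0.02 (limma adjusted p = 0.950). The ratio of C2 to CFB ran from 0.670 to 3.15 in luteal phase ovaries and from 0.248 to 0.611 in follicular phase ovaries. The log2 ratio differed by 1.83 between the phases (two-sided exact permutation p = 0.00794). This pair was chosen after the values were seen.

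C3, on which all activation pathways converge, was the most abundant of the 9 genes in each phase. Its FPKM was 411, 343, 580, 357 and 335 in luteal ovaries and 177, 151, 206, 166 and 197 in follicular ovaries. Luteal phase replicate 3 stood above the other luteal phase ovaries, and the lowest luteal phase ovary was still above the highest follicular phase one. The log2 fold change was 1.15 (standard error 0.15, limma adjusted p = 0.000170), and without luteal phase replicate 3 it was 1.02 with the adjusted p still under the threshold. C3 had a higher mean FPKM than 98.7% of all genes tested.

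CFD encodes factor D, the protease that cleaves factor B once it is bound to C3b. Its FPKM was 9.18, 19.5, 12.2, 41.9 and 40.2 in luteal ovaries and 18.0, 9.59, 36.6, 29.2 and 43.7 in follicular ovaries. Each phase covered nearly the same range, with the highest ovary more than 4.5 times the lowest in each. The log2 fold change was -0.23 (limma adjusted p = 0.734), with a 95% interval from -1.31 to 0.86, so a change of over 2-fold lower is within the interval. Its sign turned when luteal phase replicate 1 was left out (0.06, limma adjusted p = 0.925). Of the 5 adipocyte markers listed, 4 were found, and their summed FPKM was at most 1.22 in any ovary. The part of fat cells in the CFD values was not tested. ADIPOQ, the adiponectin gene, was at no more than 0.361.

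C7, which joins C5b and C6 in the membrane attack complex, had an FPKM of 55.0, 36.5, 203, 65.8 and 64.2 in luteal ovaries and of 41.7, 26.0, 30.3, 26.2 and 76.6 in follicular ovaries. Luteal phase replicate 3 was far above the other luteal phase ovaries, and follicular phase replicate 5 was above 4 of the 5 luteal phase ovaries. The log2 fold change was 0.94 (standard error 0.42, limma adjusted p = 0.0927, unadjusted p = 0.0480), so C7 did not pass. It was 0.56 (adjusted p = 0.169) without luteal phase replicate 3. It passed without follicular phase replicate 5 (1.21, limma adjusted p = 0.0355) and without luteal phase replicate 2 (1.18, adjusted p = 0.0453).

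The genes differed in their order of abundance, which FPKM allows to compare because it is scaled by transcript length. In the luteal phase the order of mean FPKM was C3 (405), C1S (248), C1R (142), C7 (85.0), C1QA (84.6), C1QC (65.1), C1QB (51.7), CFD (24.6) and C2 (4.98). The place of C7 rested on luteal phase replicate 3, without which its mean was 55.4, below C1QA (88.1) and C1QC (67.4), and C7 was above C1QA in 1 of the 5 luteal ovaries. The ranges of neighbours were apart between C3 and C1S, between C1S and C1R, between C1QB and CFD and between CFD and C2, and overlapped elsewhere. In the follicular phase the order was C3 (179), C1S (148), C1R (58.6), C7 (40.2), C1QA (30.6), CFD (27.4), C1QC (25.5), C1QB (20.7) and C2 (1.24), with the ranges of neighbours apart only between C1S and C1R and between C1QB and C2. Within the luteal phase the coefficient of variation was lowest for the C1q chains, at 11.8% to 13.3%, and highest for C7, at 79.1%, and CFD, at 63.0%.

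Most of the FPKM of each gene came from 1 annotated transcript. XM_005676887.3 held 87.6% to 90.2% of C1QA in luteal phase ovaries, XM_018055450.1 held 96.2% to 97.6% of C1QC and XM_013964253.2 held 98.2% to 99.2% of C1S. Fitted over all 32842 transcripts tested, 9 of the 12 member transcripts that met the filter were higher in the luteal phase, against 7.47% of all transcripts. The minor C1QC transcript XM_013974500.2 rose from a mean of 0.503 to 2.02 (log2 fold change 1.86, standard error 0.25, limma adjusted p = 0.000879) and the main one by 1.37 (standard error 0.18). Whether these changes differed was not tested. The other 2 transcripts of C2 stayed under the filter, each below 0.5 in every ovary.

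The other complement genes were taken from a list of 42, of which 35 were found and 27 met the filter. Of these 27, 14 were higher in the luteal phase, none was lower and 13 did not pass, with a median log2 fold change of 0.71. Over all genes tested the shares were 15.9% higher and 27.8% lower, and the median was -0.14. This list, too, was chosen with earlier results of these data known. The 8 found genes that did not meet the filter, among them C9 of the pore, which was listed at 0 in all 10 ovaries, and C8A, had low levels or a 0 in many ovaries.

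**Figure D3:**
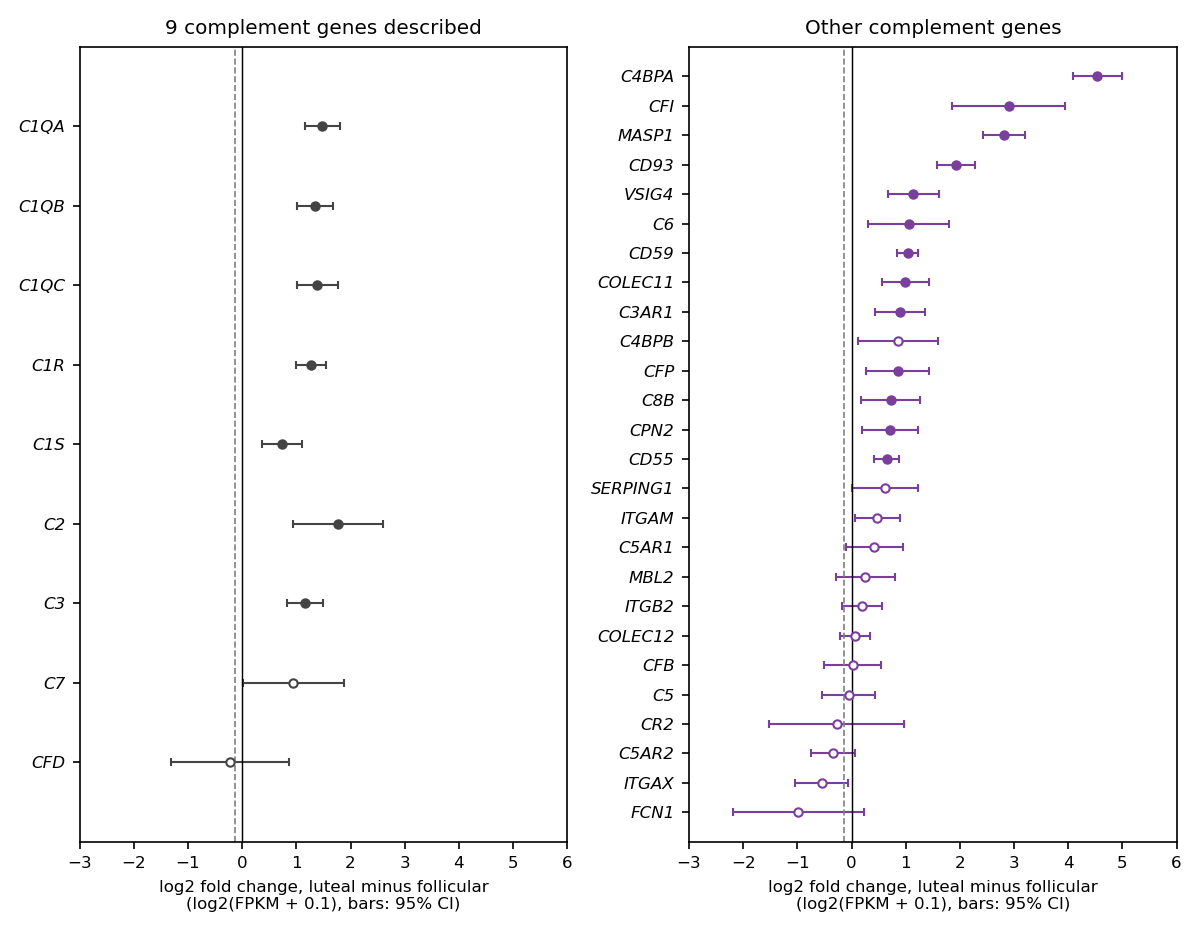
Log2 fold change, luteal minus follicular, of the 9 complement genes described (left) and of 26 other complement genes tested (right), with 95% intervals from limma as bars. Filled points passed at an adjusted p under 0.05, open points did not, and the dashed line marks the median of all genes tested (-0.14). C4BPA lies farthest to the right, at 4.54, and FCN1, an open point, farthest to the left.

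Several regulators that limit complement were higher in the luteal phase. C4BPA, the alpha chain of the soluble C4b-binding protein, ran from 10.2 to 17.1 in luteal ovaries and from 0.384 to 0.763 in follicular ovaries (log2 fold change 4.54, standard error 0.21, limma adjusted p = 7.30e-08). CFI, the protease factor I that inactivates C3b and C4b, ran from 6.05 to 41.6 and from 1.73 to 4.74 (log2 fold change 2.90, limma adjusted p = 0.000724). CD59, the membrane protein that blocks the last step of the pore, ran from 269 to 347 against 134 to 161 (log2 fold change 1.04, limma adjusted p = 8.37e-06). None of these 3 genes had a luteal phase ovary within the follicular range. Of the 6 soluble inhibitors tested 4 were higher, and both membrane inhibitors tested were, where 15.9% of all genes tested were higher. Among these 4, CPN2 was near the filter and overlapped, at 0.0662 to 0.195 in luteal and 0.0163 to 0.104 in follicular ovaries. C4BPB, which encodes the other chain of C4b-binding protein, did not pass (log2 fold change 0.86, limma adjusted p = 0.0565).

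Among activators, MASP1, a protease of the lectin pathway, was at 4.80 to 8.16 in luteal ovaries and 0.620 to 1.02 in follicular ovaries (log2 fold change 2.81, limma adjusted p = 9.76e-07). COLEC12, a membrane collectin, was at 42.3 to 69.1 and 43.1 to 58.1, with a log2 fold change of 0.06 (limma adjusted p = 0.710). The lectin group had 2 of 5 tested genes higher, the alternative pathway 1 of 2 and the terminal pathway 2 of 3, against 15.9% of all genes tested, and groups this small are given as counts only. The terminal genes had low levels, and with the filter at an FPKM of 0.5 none of them could be tested. C6, which binds before C7 in the pore, stayed below 0.718 in every ovary (log2 fold change 1.05, limma adjusted p = 0.0285).

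Of the 9 receptors, 3 were higher in the luteal phase and 6 did not pass, beside 15.9% higher among all genes tested. CD93, an endothelial glycoprotein once described as a C1q receptor, was at 40.9 to 55.0 in luteal ovaries and at 9.12 to 18.0 in follicular ovaries (log2 fold change 1.92, limma adjusted p = 7.54e-06). VSIG4, a receptor of tissue macrophages for C3b and iC3b, was at 4.42 to 5.50 against 1.40 to 3.70 (log2 fold change 1.14, limma adjusted p = 0.00165). The remaining receptor that passed was C3AR1, the C3a receptor, with a log2 fold change of 0.90 (limma adjusted p = 0.00583). ITGAM and ITGB2, the chains of complement receptor 3, did not pass, with log2 fold changes of 0.48 and 0.19 (limma adjusted p = 0.0579 and 0.384). C3AR1 and these chains fall outside the naming rule and were picked with their values in view.

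Markers of cell types that could hold these transcripts were listed as well. Of 11 macrophage markers 10 were found. In the luteal phase 3 were higher and 1 was lower, and 6 did not pass (all genes tested: 15.9% higher and 27.8% lower). None of the 10 was at 0 in all ovaries, and their summed FPKM ran from 149 to 228 in luteal ovaries and from 82.8 to 155 in follicular ovaries, with overlap. MRC1, the mannose receptor, was at 35.3 to 80.0 against 18.2 to 23.9 (limma adjusted p = 0.000263). TYROBP, a signalling adaptor, changed by 0.49 (limma adjusted p = 0.0420), and AIF1, with a log2 fold change of 0.43 (limma adjusted p = 0.0925), did not pass. Outside the naming rule and chosen after the values were seen, CSF1R, the receptor for the macrophage growth factor, changed by 0.95 (limma adjusted p = 0.00998), while CD68 and CD14 had log2 fold changes of -0.02 and 0.07 (limma adjusted p = 0.962 and 0.694). ADGRE1, also outside the rule, was the lower one, at -2.37 (limma adjusted p = 7.78e-05). The part of macrophage number in the C1q values was not tested.

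All 6 endothelial markers were higher in the luteal phase, with log2 fold changes from 0.91 to 1.52, and their summed FPKM ran from 135 to 166 against 63.6 to 74.4, with none at 0. Of 9 fibroblast and stroma markers, 4 were higher, 2 were lower and 3 did not pass, and their summed FPKM ran from 3427 to 5724 against 2678 to 3802. COL3A1 changed by 0.75 (limma adjusted p = 0.00488) and COL1A2 by 0.52 (limma adjusted p = 0.0216). DCN, with a log2 fold change of -0.18 (limma adjusted p = 0.335), did not pass. The part of these cells in the values of C1R, C1S and C3 was not tested. All 5 smooth muscle markers were lower in the luteal phase. Of 7 lymphocyte markers tested 1 was higher. Of 3 neutrophil markers tested 1 was higher and 2 were lower. In the adipocyte list 1 of 3 tested was higher, at a low level, and in the blood list the 1 gene tested did not pass. These counts stand against 15.9% higher and 27.8% lower among all genes tested, and the lymphocyte count is near that share.

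Of 5 hepatocyte markers listed, 4 were found, and their summed FPKM was at most 9.68 in luteal ovaries and 6.71 in follicular ovaries, nearly all of it from APOA2, which reached 8.71 in luteal phase replicate 1, and TTR. ALB, the albumin gene, was at no more than 0.106 and FGB at no more than 0.0340. TTR was lower in the luteal phase (log2 fold change -1.63, limma adjusted p = 0.000645), and APOA2 did not pass.

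**Figure D4:**
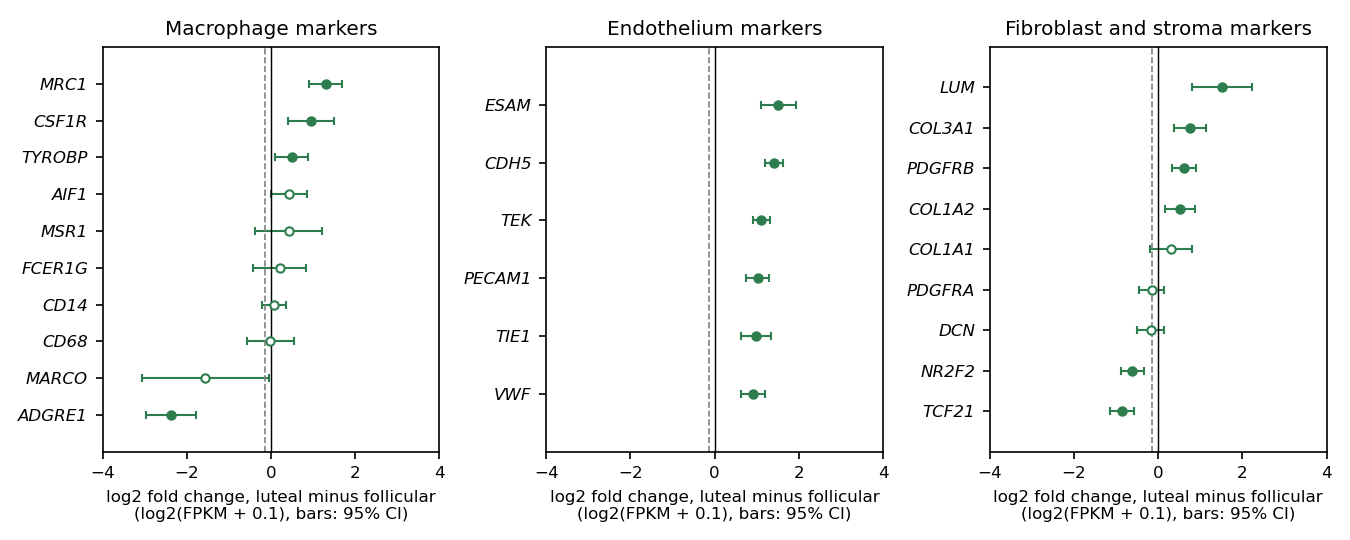
Log2 fold change, luteal minus follicular, of macrophage, endothelial and fibroblast or stroma marker genes, with 95% intervals from limma as bars. Filled points passed at an adjusted p under 0.05, and the dashed line marks the median of all genes (-0.14). All 6 endothelial markers lie to the right of 0, and the macrophage and stroma markers spread to both sides.

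Genes with the most similar pattern within the phases were sought among 12581 tested genes with a mean FPKM of at least 1, by Pearson's r over the 10 ovaries with phase means taken out. These values are a description and carry no p, since the best of many genes were taken. For C1QA the highest were C1QB (r 0.961, Spearman's rho 0.891), B3GLCT (0.961) and VPS37A (0.955). For C1QB they were GNAI2 (0.975), C1QA (0.961) and OAZ2 (0.958), and for C1QC they were CD84 (0.955), a receptor of leukocytes, IMMP1L (0.952) and CORO1A (0.950), an actin-binding protein of leukocytes. For C1S they were TAF1A (0.967), ZKSCAN8 (0.965) and CHI3L1 (0.949). ZNF652 was highest for C1R (0.971), UBE2Q2 for C2 (0.977), ANTXR1 for C3 (0.972) and ZFP36L1 for C7 (0.983). CFD was most like DDC, CADM4 and FNDC4 (0.941 each).

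Among the 9 genes themselves the same measure gave 0.914 for C1R and C1S. CFD had values of 0.709 to 0.786 with the C1q chains and of -0.16 with C3. C3 had values of 0.0795 to 0.152 with the C1q chains, and of 0.774 with C1R and 0.788 with C7. These coefficients over 10 ovaries describe shared deviation within the phases and were not tested.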

How the data were processed

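Per the methods of the study, the authors aligned reads with HISAT2 2.0.4, assembled transcripts with StringTie 1.3.1 and computed FPKM with Cuffdiff 2.1.1, and no ovaries were pooled. The deposited FPKM table has 50146 transcripts, and the sum per ovary ran from 452508 to 540124. The genome build is not given in the sources used here, so no coordinates are printed, and gene order was read from the RefSeq annotation of ARS1.2. All 14 member transcript identifiers were found there. Only the transcript FPKM table was analysed.

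FPKM of protein-coding rows were summed by symbol and analysed as log2(FPKM + 0.1) with limma 3.58.1 (lmFit, eBayes with trend) in R 4.3.3, with no block for the replicate number. Ratios were compared by exact permutation over all 252 divisions of the ovaries, with Benjamini-Hochberg adjustment over 5 ratios. Python 3.11.15 was used for these. The 9 genes, the lists and the tests were chosen with earlier results of these data known. Named were all 9 genes, the 6 called genes with the largest change per direction and any gene of the wider complement list with a mean FPKM of 50 or more, up to 3 of the most abundant genes of a marker list, and the 3 genes most like each member, of which some are printed. The values of 1 gene of the wider list are not reported here. Of 112 other listed symbols 98 were found, CYP11A1 through a synonym; the others were not analysed here. On simulated data for this comparison over 15359 genes, 70% of 2-fold and 94% of 4-fold changes were recovered, with 6.29% false calls. The simulation drew independent Gaussian noise for each gene and changed 200 genes. In the data 6711 genes were called, so these rates need not hold for them. Alternatives were other pseudocounts, filters, scalings and variance models, an exact permutation test, the most abundant transcript, a replicate block and leaving out each ovary.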

Additional observations from a re-analysis of the deposited data

Results flagged for a closer look

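In values of 4 kinds (the 9 genes, the other complement genes named, the ratios and the summed marker lists) each phase was checked for an ovary far from the other 4, at a gap of more than 0.71 of the whole range. Chance alone marks about 1 in 20 such groups, and 5 of the 70 checked were marked. C7 was at 203 in luteal phase replicate 3, against 36.5 to 65.8 in the other luteal phase ovaries. C4BPA was at 0.763 in follicular phase replicate 5, against 0.384 to 0.483 in the others, all far below the luteal phase. The summed FPKM of the lymphocyte markers was 19.4 in follicular phase replicate 5, against 7.28 to 9.41. The summed FPKM of the neutrophil markers was 52.3 in follicular phase replicate 4, against 13.0 to 24.0. The summed FPKM of the hepatocyte markers was 9.68 in luteal phase replicate 1, against 0.635 to 3.24.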

How the results depend on the processing

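The 7 calls kept their direction and stayed past the threshold under every alternative run, namely a pseudocount of 1 or 0.01, a filter at 0.5 or none, TPM, quantile normalization, a common median, a robust or untrended eBayes, the most abundant transcript, the replicate block and each ovary left out. In the exact permutation test each of the 7 had an unadjusted p of 0.00794, the smallest possible. Leaving out 1 ovary at a time gave a log2 fold change from 0.56 to 1.21 for C7, which passed in 2 of the 10 fits, and from -0.56 to 0.063 for CFD, which passed in none. The difference between the phases in the log2 ratio of C1R to C1S ran from 0.50 to 0.61, with an adjusted exact permutation p of 0.0794 in 2 of 10 fits, that of C1QA to C1QC from 0.031 to 0.14, that of C1QB to C1QC from -0.10 to 0.0032 and that of C1S to SERPING1 from -0.031 to 0.24. The cause was not tested. Chosen after seeing the data, the filter at 0.5 left 0 of the 2 calls of the terminal pathway, and the luteal mean of C7 was 55.4 without luteal phase replicate 3. Calls in the wider complement list numbered 14 and ran from 11 to 16, and calls over all genes numbered 6711 and ran from 5488 to 7020. In the wider list 1 gene was called lower under some alternatives, CSMD1 with no filter and on the TPM scale, and ITGAX, FCN1 or C5AR2 with an ovary left out. With the replicate number as a block, 7 members, 12 genes of the wider list and 7020 genes were called, and the adjusted p of C1S was 0.00103. Deviations of same-numbered ovaries correlated at 0.0259 to 0.199, all positive, and 2 of the 5 luteal phase ovaries correlated best with their own number. Whether equal numbers share a factor was not tested. The labels do not tie them to each other, so the main fit used no block. Depth per ovary is unknown, so no counting error can be given for low genes such as C2 and C6.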
